A study of Mus musculus with 6 samples.

Results

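The Schlafen family is a cluster of related genes on mouse chromosome 11, named after the German word for sleeping. The 6 members described here, Slfn1, Slfn2, Slfn4, Slfn5, Slfn8 and Slfn9, were taken by symbol from the deposited count files, which hold 56832 gene names, and all 6 were found. RNA was measured by sequencing of polyadenylated RNA from cells that the labels call monocytes, isolated from peripheral blood of mice. The 3 thrombocytopenic libraries came from PF4cre-iDTR mice. In these animals the platelet factor 4 promoter, known for its activity in megakaryocytes, drives a Cre recombinase that turns on a diphtheria toxin receptor. The 3 control libraries came from mice labelled WT. Diphtheria toxin is the treatment named for both groups, so that genotype and platelet state cannot be told apart. Strain, age, sex, toxin dose and time, and whether each library came from a separate animal, are not in the labels, so that a p-value reflects just the variation among these 6 libraries, part or all of which may be technical.

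Schlafen proteins share a conserved N-terminal region, and several of them bind or cut transfer RNA. They are grouped by size: the short forms Slfn1 and Slfn2, the intermediate forms Slfn3 and Slfn4, and the long forms Slfn5, Slfn8, Slfn9 and Slfn14, which carry an added helicase-like part. Many of the genes are switched on by type I interferon in myeloid cells, and Slfn2 is known for keeping T cells and monocytes quiescent. The comparison asks how the RNA of the family differed between monocytes of mice with and without thrombocytopenia.

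Total counts ranged from 24842319 to 37552029 per library, and each of the 6 members had at least 3435 counts in every library. Monocyte genes were abundant, with Lyz2, Csf1r and Adgre1 at 11980, 1229 and 2711 CPM (counts per 1 000 000, scaled by TMM factors) in the control group. Of 14 monocyte markers, 7 were higher and 6 lower in the thrombocytopenic group. Marker sums are given per 1 000 000 counts of the library total, without TMM factors, thrombocytopenic against control. Markers of T and NK cells summed to 28.1 to 31.4 against 46.9 to 49.3, mostly Il7r, with 3 of 4 tested lower and Cd3d, Cd3e and Cd3g, of the T cell receptor complex, without a count in any library. Markers of dendritic cells summed to 19.8 to 21.1 against 37.0 to 40.8, with 5 of 7 tested lower. Platelet markers did not move together. Their sum, 1221 to 1287 against 1011 to 1056, was mostly Pf4, and Pf4 and Ppbp were called higher (log2 fold changes 0.24 and 0.66). Of the other 5 tested, 4 were called lower, namely Clec1b (-2.27), Itga2b (-1.27), Itgb3 (-0.90) and Gp9, with 0 counts against 41. Neutrophil markers were also split. Their sum, 353 to 364 against 245 to 262, was mostly Mmp8, and Mmp8 and Mmp9 were called higher (0.51 and 1.03). The other 5 tested had log2 fold changes from -1.81 (Ltf) to -0.03 (Camp), of which Ngp was called lower (-0.90; 0 to 4 of the list were lower under the alternatives), and Ly6g had 0 counts against 1. B cell markers summed to 13.5 to 15.3 against 11.1 to 13.1, mostly Ighm. Erythroid markers summed to 0 to 0.056 against 1.89 to 2.42, mostly Hba-a1, with 0 counts against 180. The part of these cells in the Schlafen values was not tested.

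All 6 Schlafen members were lower in the thrombocytopenic group, by 1.06-fold to 1.48-fold. Slfn4 and Slfn9 fell most, Slfn1, Slfn5 and Slfn8 fell by similar small amounts, and Slfn2 fell least. Each passed edgeR's quasi-likelihood test at a Benjamini-Hochberg adjusted p under 0.05 over the 12488 genes tested, and in each the groups did not overlap. Over all genes tested 45.1% passed the same test, 22.7% lower and 22.4% higher. The groups did not overlap for 51.3% of them, 26.1% lower and 25.2% higher. The median log2 fold change of the members was -0.23, against -0.00079 over all genes tested. In RNA from whole cell samples, fewer cells of a type and less RNA per cell cannot be told apart.

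**Figure D1:**
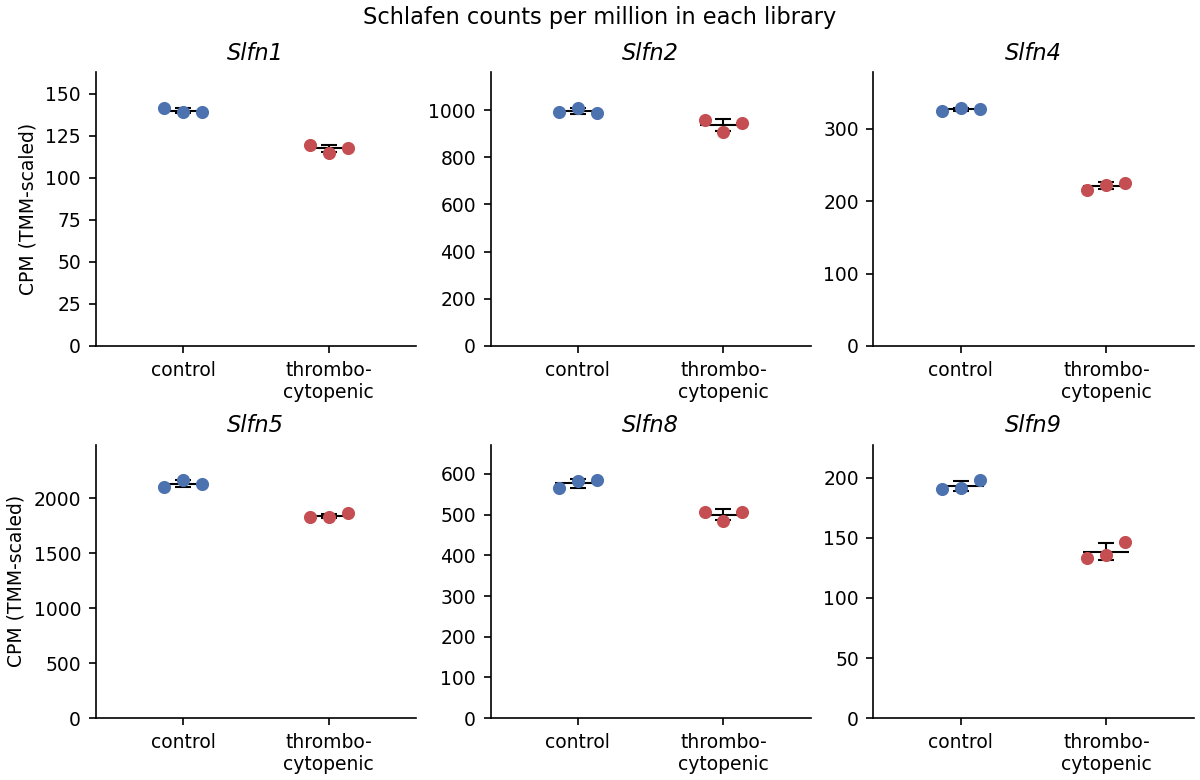
CPM scaled by TMM factors (vertical axes, starting at 0) of the 6 Schlafen members in the 3 control and 3 thrombocytopenic libraries; points are libraries, and lines with bars are the mean and SD. In all 6 panels the thrombocytopenic libraries lie below the control libraries, with the widest gap for Slfn4, at 216 to 225 CPM against 325 to 329 CPM.

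The short forms differed from each other in the size of the change. Slfn1, the founding gene of the family and known for arresting growth when overexpressed, stood at 119.7, 115 and 118 CPM in thrombocytopenic replicates 1 to 3 and at 142, 139 and 139 CPM in control replicates 1 to 3. The highest thrombocytopenic library lay below the lowest control library by far more than the spread within a group. Slfn1 fell by 0.25 on the log2 scale (SE 0.031; edgeR adjusted p = 6.39e-10). Slfn2, whose protein shields transfer RNA from stress-induced cleavage, stood at 958, 909 and 945 CPM in the thrombocytopenic libraries and at 991, 1009.6 and 989 CPM in the control libraries. Here the groups came close, and thrombocytopenic replicate 2 was the lowest library. The log2 fold change of Slfn2 was -0.09 (SE 0.025; 95% interval -0.14 to -0.04; edgeR adjusted p = 0.00243). The count ratio of Slfn1 to Slfn2, which does not depend on scaling between libraries, was 0.125 ± 0.0010 against 0.141 ± 0.0025 (mean ± SD, n = 3 in each group; exact permutation p = 0.1, two-sided, the smallest that 3 against 3 libraries allow).

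Slfn4, an intermediate form expressed mainly in myeloid cells, had the largest fold change of the family. It stood at 216, 223 and 225 CPM in the thrombocytopenic libraries and at 325, 329 and 328 CPM in the control libraries. Both groups were tight, and the gap between them was many times their spread. Slfn4 fell by 0.56 on the log2 scale, or 1.48-fold (SE 0.027; edgeR adjusted p = 1.40e-24), and 8.26% of all genes tested had a lower log2 fold change. For the other members that share was 10.5% (Slfn9), 20.4% (Slfn1), 23.2% (Slfn5), 23.6% (Slfn8) and 36.2% (Slfn2). The other intermediate form, Slfn3, is not among the 6 members and was measured at 32.1, 33.5 and 36.6 CPM against 40.9, 42.1 and 41.0 CPM. It was lower too, with a log2 fold change of -0.28 (SE 0.048; edgeR adjusted p = 1.94e-06). The coding sequences of Slfn3 and Slfn4 were 94.6% identical over 1650 aligned bases, so that the split of reads between them is uncertain. The count ratio of Slfn4 to Slfn3 was 6.51 ± 0.301 in the thrombocytopenic and 7.92 ± 0.101 in the control libraries (mean ± SD, n = 3 each; exact permutation p = 0.1, the smallest possible). As counted, Slfn4 was thus lower also relative to its near copy, but the ratio rests on that uncertain split of reads.

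Of the long forms, Slfn9 fell more than Slfn5 and Slfn8. Slfn5, whose human counterpart is a nuclear protein that acts on interferon-induced transcription, stood at 1833, 1828 and 1863 CPM in the thrombocytopenic libraries and at 2102, 2166 and 2132 CPM in the control libraries. It gave the most counts of the family in every library. Its log2 fold change was -0.21 (SE 0.023; edgeR adjusted p = 1.77e-11). Slfn8, a long form close to human SLFN11 and SLFN13, stood at 508, 484 and 508 CPM against 564, 583 and 585 CPM, with a log2 fold change of -0.21 (SE 0.026; edgeR adjusted p = 1.37e-09). Its neighbour and near copy Slfn9 stood at 133, 135 and 147 CPM against 190.1, 192 and 198 CPM. Thrombocytopenic replicate 3 was the highest of its group for Slfn9 and still well below every control library. Slfn9 fell by 0.48 on the log2 scale, or 1.40-fold (SE 0.032; edgeR adjusted p = 1.97e-18).

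Slfn8 and Slfn9 had coding sequences of 2730 bases each, 92.7% identical, yet their fold changes were apart. The count ratio of Slfn9 to Slfn8 was 0.262, 0.279 and 0.289 in the thrombocytopenic libraries and 0.337, 0.329 and 0.338 in the control libraries. The groups did not overlap, and the log2 ratio differed by -0.27 (exact permutation p = 0.1, the smallest possible; these ratios were chosen after values were seen). In GENCODE M21 transcripts, 14.6% of the distinct windows of 50 bases in Slfn8 and 11.5% of those in Slfn9 also occurred in another gene, and 3.38% and 3.71% of the windows of 100 bases. The shares of shared windows of 50 bases were 10.8% for Slfn4, 4.27% for Slfn2, 3.37% for Slfn5 and 0.61% for Slfn1. Slfn10-ps, a transcribed pseudogene between Slfn8 and Slfn2, shared the most of its 50-base windows of the cluster genes, 19.7%. It stood at 47.9 to 53.3 CPM against 61.1 to 70.7 CPM, with a log2 fold change of -0.39 (SE 0.046; edgeR adjusted p = 9.18e-09). How reads that match more than 1 gene were counted is not given in the sources used here, so the values of Slfn8, Slfn9 and Slfn10-ps are uncertain in their split.

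The sequence before the start of 3 of the 6 members held the letters of the interferon-stimulated response element, a DNA site through which type I interferon switches genes on. The letters searched were GAAA, then 2 bases of any kind, then GAAA again, on both strands, in windows from 250 bases before to 50 bases after each RefSeq start (GRCm38.p6). Of 32851 such windows of all genes 3.44% held a match, and counted per gene 3.99% of 27025 genes had a match. The 6 members had 7 windows, since Slfn8 has 2 starts, and a match was found for Slfn5, Slfn8 and Slfn9, all of them long forms. Of 25 interferon-stimulated genes with a window, 13 had a match. The letters TTCNNNGAA, of the gamma-activated site, were in 8.3% of all windows and in none of the members' windows; the matches of the 2 motifs therefore did not overlap. A match describes letters only. The 250 bases before the start are shown for these 3 genes, with the match in capitals. In the near copies Slfn8 (from the start farther upstream) and Slfn9 the match lies at almost the same distance from the start.
Slfn5, chr11:82951852-82952101, plus strand: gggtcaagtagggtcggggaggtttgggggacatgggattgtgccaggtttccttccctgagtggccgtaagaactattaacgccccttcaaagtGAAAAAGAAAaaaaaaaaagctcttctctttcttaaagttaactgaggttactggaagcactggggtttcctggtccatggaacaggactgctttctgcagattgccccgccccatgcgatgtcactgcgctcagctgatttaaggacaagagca
Slfn8, chr11:83020811-83021060, minus strand: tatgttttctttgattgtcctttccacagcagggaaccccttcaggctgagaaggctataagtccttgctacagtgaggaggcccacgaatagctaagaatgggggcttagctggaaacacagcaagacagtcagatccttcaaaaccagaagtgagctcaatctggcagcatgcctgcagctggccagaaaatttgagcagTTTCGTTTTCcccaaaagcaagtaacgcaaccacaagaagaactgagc
Slfn9, chr11:82991831-82992080, minus strand: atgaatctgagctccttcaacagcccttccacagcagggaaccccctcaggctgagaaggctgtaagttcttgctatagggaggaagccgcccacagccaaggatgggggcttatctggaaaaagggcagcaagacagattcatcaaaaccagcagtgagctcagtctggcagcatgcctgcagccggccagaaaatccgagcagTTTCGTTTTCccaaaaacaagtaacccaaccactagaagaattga
Each is read 5′ to 3′ on the strand of its gene and ends at the base before the start. The capitals in Slfn8 and Slfn9 read TTTCGTTTTC, which is the motif on the other strand, and span bases -48 to -39 of Slfn8 (from the start farther upstream) and -45 to -36 of Slfn9. From the other Slfn8 start the same letters span bases -136 to -127. In Slfn5 the capitals read GAAAAAGAAA and span bases -155 to -146, at the head of a run of A. The Slfn8 and Slfn9 sequences were 86.3% identical over 227 aligned bases. The genes with a match thus included members with a small fold change (Slfn5 and Slfn8) and with a larger one (Slfn9). Slfn4, with the largest, had no exact match in this window, and near matches were not searched.

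Levels can be set side by side only per length. Per kilobase of the gene's exons in GENCODE M21, the control libraries had the order Slfn2 (599 ± 6.84 CPM per kilobase, mean ± SD, n = 3), Slfn5 (337 ± 5.11), Slfn8 (141 ± 2.74), Slfn4 (82.6 ± 0.606), Slfn1 (75.1 ± 0.721) and Slfn9 (32.4 ± 0.679). The libraries of neighbours in this order did not overlap. In the thrombocytopenic libraries Slfn2 (563 ± 15.3), Slfn5 (291 ± 3.02) and Slfn8 (122 ± 3.29) kept the first places. Slfn4, at 54.4 to 56.9, stood below Slfn1, at 63.0 ± 1.24, so that these neighbours changed places. Slfn9 was again the lowest member, at 23.2 ± 1.22. The orders were the same with the length of the longest transcript.

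The summed CPM of the 6 members was 3767, 3695 and 3806 in the thrombocytopenic libraries and 4313, 4419 and 4371 in the control libraries. Within that sum, Slfn2 took a larger part and Slfn4 and Slfn9 a smaller part in the thrombocytopenic libraries. The share of Slfn2 was 24.6% to 25.4% against 22.6% to 23.0%, a difference of 2.14 percentage points. Slfn4 held 5.89% ± 0.152 against 7.49% ± 0.0403 and Slfn9 held 3.68% ± 0.162 against 4.42% ± 0.0948 (mean ± SD, n = 3 each). For these 3 members the groups did not overlap (exact permutation p = 0.1, the smallest possible). Slfn5 held 49.0% ± 0.419 against 48.8% ± 0.159, Slfn8 13.3% ± 0.185 against 13.2% ± 0.147, and Slfn1 3.13% ± 0.0422 against 3.21% ± 0.0676. Their libraries overlapped between the groups, with exact permutation p = 0.7, 0.6 and 0.2, two-sided. The 95% Wilson interval of a library's share was at most 0.598 percentage points wide, and it covers counting error only.

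**Figure D2:**
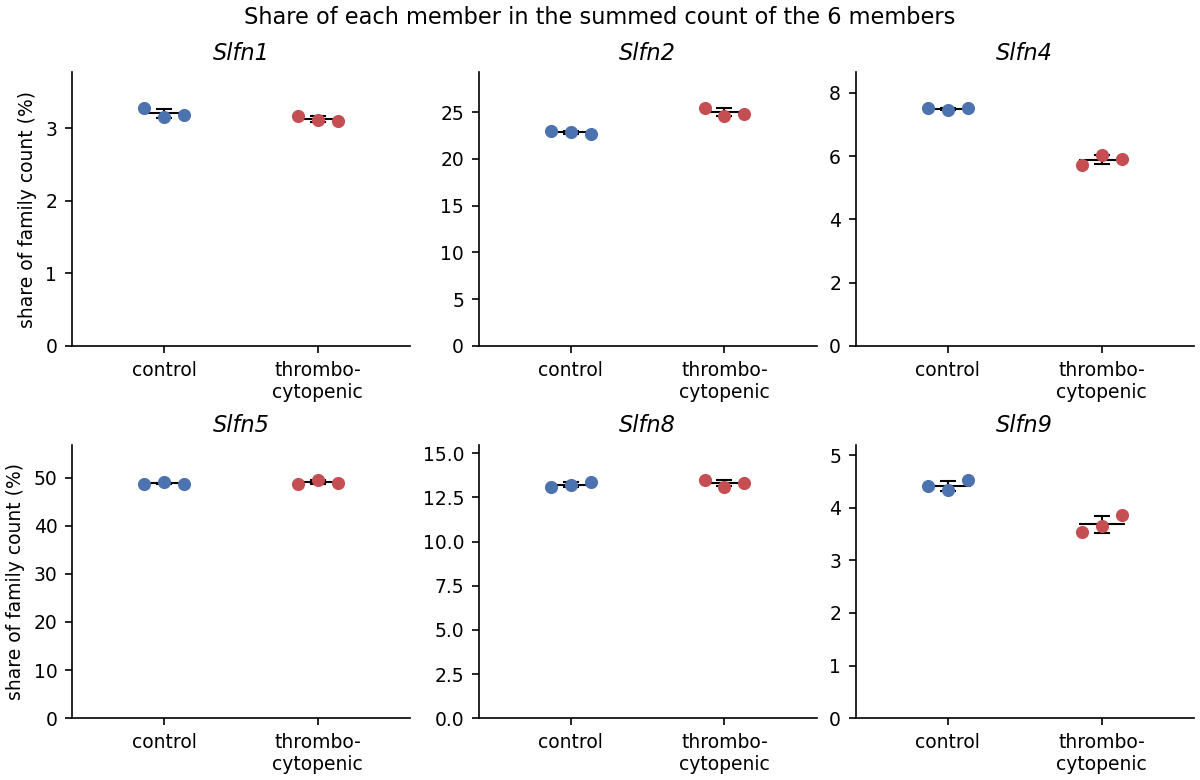
Share of each member in the summed count of the 6 members (vertical axes in percent, starting at 0) in each library; points are libraries, and lines with bars are the mean and SD of 3. Slfn2 is at 24.6% to 25.4% in the thrombocytopenic group, above all control libraries, while Slfn4 and Slfn9 are below all control libraries.

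Beside Slfn3 and Slfn10-ps, both described above, 3 other Schlafen genes in the files were nearly silent. Slfn14, a ribosome-associated nuclease whose mutation causes an inherited thrombocytopenia in people, had 0 counts in the thrombocytopenic and 2 counts in the control libraries, all in control replicate 1. Slfn5os, an antisense transcript overlapping Slfn5, had 1 count in each group, and Slfnl1, a distant relative on another chromosome, had 2 in each. These lie under a floor of 3 counts over a group, and no fold is given. Slfn5 thus had almost no counted antisense partner. Since the strand setting of the counting is not given, these counts do not show how much antisense RNA there was.

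In RefSeq order the tested Schlafen genes lie as Slfn5, Slfn9, Slfn8, Slfn10-ps, Slfn2, Slfn1, Slfn4 and Slfn3. All 8 were lower, and the order of their fold changes did not follow their order along the cluster. Of 14 listed flanking genes 9 were tested, and 3 were higher and 1 lower, beside 22.4% higher and 22.7% lower of all genes tested. Higher were Rffl, a ubiquitin ligase gene (log2 fold change 0.23, SE 0.035), Taf15, an RNA-binding protein gene (0.17, SE 0.036), and Ap2b1, a clathrin adaptor gene (0.13, SE 0.027). Heatr9 was lower (-0.39, SE 0.091). Nle1, a ribosome assembly gene on the Slfn5 side, was not called (0.07, 95% interval -0.08 to 0.23).

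**Figure D3:**
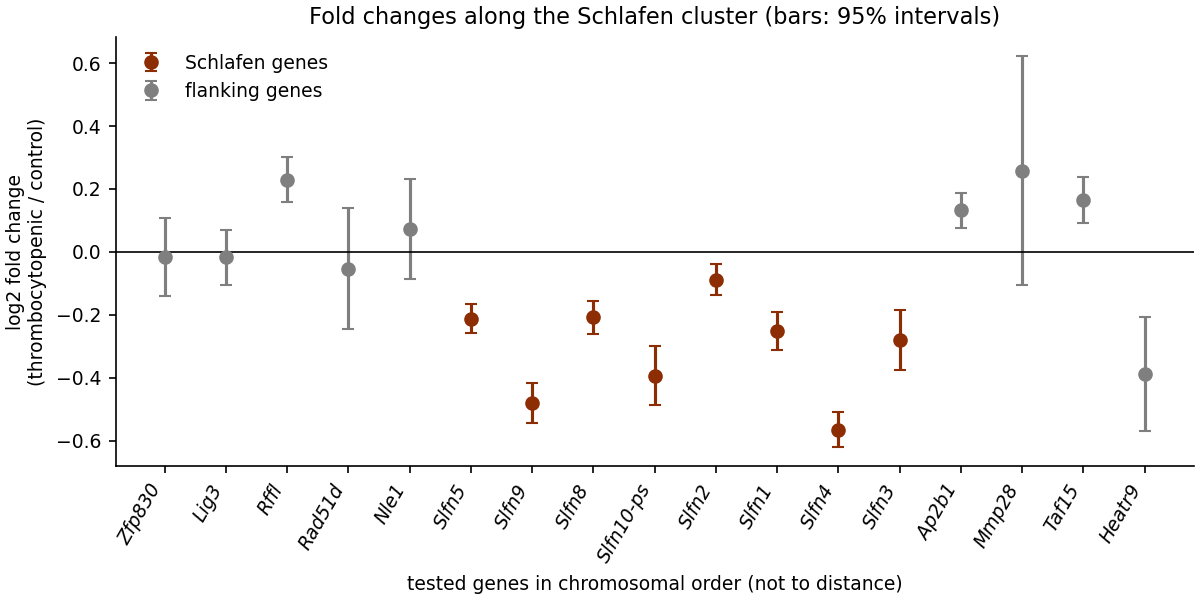
Log2 fold change of thrombocytopenic over control (vertical axis) for the tested Schlafen genes and the tested genes of the flanking list in chromosomal order, spaced evenly; bars are 95% intervals. The 8 Schlafen genes lie between -0.56 and -0.09, and the flanking genes lie on both sides of 0.

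Of 33 interferon-stimulated genes of other families in the files, all tested, 30 (29 to 31 under the alternatives) were lower and none was higher. By comparison, 22.7% of all genes tested were lower and 22.4% higher. The median log2 fold change of the list was -0.24. Rsad2, an antiviral enzyme gene, Ifit2, which encodes a translation inhibitor, and Cmpk2, a mitochondrial nucleotide kinase gene, were at -0.82, -0.80 and -0.64. Parp9 (-0.03), Parp14 (-0.05) and Helz2 (-0.06) did not pass. Parp14 passed with upper quartile scaling, without thrombocytopenic replicate 3 and without control replicate 1 (adjusted p = 0.0149, 0.0394 and 0.0363), and Helz2 without a filter and without thrombocytopenic replicate 2 (adjusted p = 0.0464 and 0.0489). The ligand gene Ifnb1 went the other way. It stood at 4.04 ± 0.872 CPM against 2.63 ± 0.224 CPM and was higher by 0.63 on the log2 scale (SE 0.15; edgeR adjusted p = 0.000350). Of 21 interferon ligand genes 19 had no count in any library, among them Ifng.

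Of 19 genes of interferon receptors, kinases and transcription factors, 8 were lower, 3 higher and 8 did not pass, with a median of -0.04. Of all genes tested, 22.7% were lower and 22.4% higher. For Irf7, a transcription factor of the interferon response, the levels were 636 ± 13.2 and 798 ± 12.0 CPM, a log2 fold change of -0.33 (SE 0.025). For Socs3, a feedback inhibitor of cytokine signalling, they were 699 ± 15.5 and 509 ± 16.3 CPM, a log2 fold change of 0.46 (SE 0.026). Ifngr1, a chain of the interferon gamma receptor, was higher too (0.51, SE 0.038), as was the kinase gene Tyk2 (0.08). Tyk2 lost its call with upper quartile scaling (0.06, adjusted p = 0.0968) and without thrombocytopenic replicate 3, control replicate 1 or control replicate 3 (0.07 each, adjusted p = 0.0969, 0.0912 and 0.114). The type I receptor genes Ifnar1 (0.02, 95% interval -0.03 to 0.07) and Ifnar2 (-0.04, -0.10 to 0.02), chosen after their values were seen, did not pass.

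**Figure D4:**
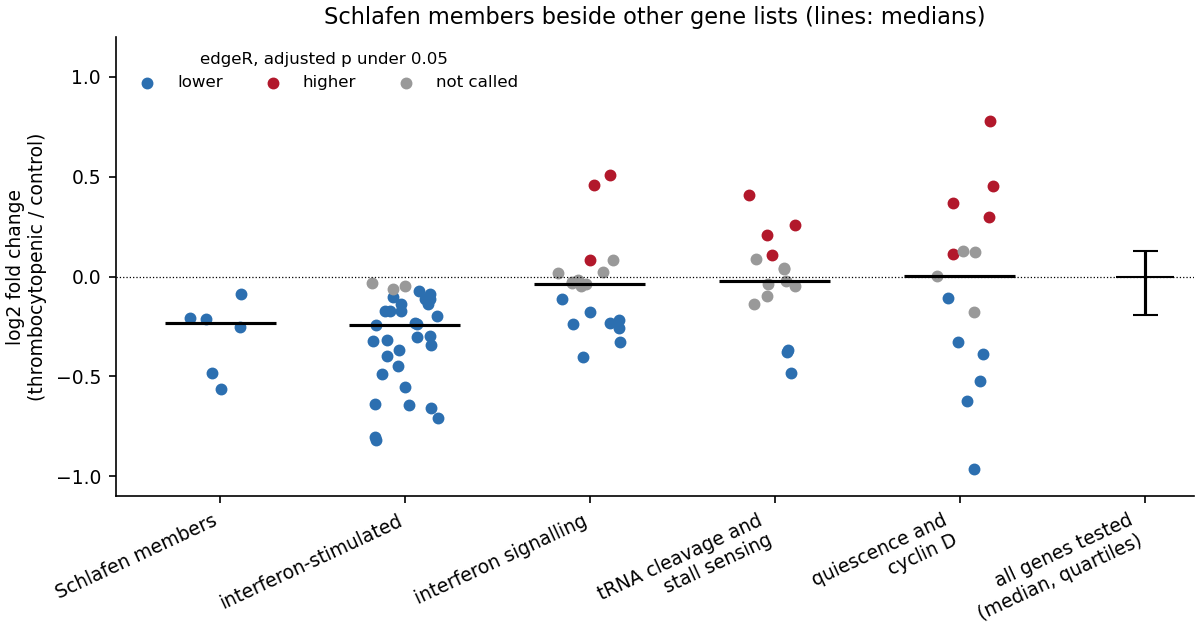
Log2 fold change of thrombocytopenic over control (vertical axis) for each tested gene of 5 gene lists, coloured by the edgeR call, with the list median as a line, beside the median and quartiles of all genes tested. The 6 Schlafen members and 30 of 33 interferon-stimulated genes are lower, with medians of -0.23 and -0.24. Of all genes tested 22.7% are called lower.

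Genes of transfer RNA cleavage and of the sensing of stalled ribosomes, processes that Schlafen proteins act on, changed in both directions. Of 15 tested, 4 were higher and 3 lower, with a median of -0.02. Over all genes tested 22.4% were higher and 22.7% lower, so that this list was called about as often as genes in general. Map3k20, a kinase that senses stalled ribosomes, had 45.4 ± 1.96 and 34.3 ± 1.01 CPM, a log2 fold change of 0.41 (SE 0.046). Hbs1l, a ribosome rescue factor gene, and Atf4, a stress response transcription factor gene, were at 0.26 and 0.21, and Nsun2, a transfer RNA methyltransferase gene, at 0.11. Lower were Ang, the gene of the nuclease angiogenin (-0.48, SE 0.15), Trdmt1, another transfer RNA methyltransferase gene (-0.38), and Eif2ak4, a kinase that senses uncharged transfer RNA (-0.37). Of 15 quiescence and D-type cyclin genes 5 were higher and 6 lower, with a median of 0.0029. Btg2, an antiproliferative gene, and Cdkn1a, a cell cycle inhibitor gene, rose by 0.78 and 0.45 on the log2 scale. Ccnd2 (-0.62) and Ccnd1 (-0.96, chosen after its values were seen), the genes of cyclins D2 and D1, were lower. Other genes of the list, also chosen after their values were seen, went against this split. Ccnd3 was higher (0.30), and Cdkn2c (-0.52) and Btg1 (-0.33) were lower.

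The genes whose profile over the 6 libraries was closest to that of each member, by the root mean square difference of log2 CPM centred on the control mean, were found for description only. For Slfn4 they were Top2a, a topoisomerase gene, and Abr, a GTPase regulator gene (0.019 each), and for Slfn9 Cenpe, a kinetochore motor gene (0.023), and Gramd1b (0.029). For Slfn1 they were Rab8b (0.011) and Cstb (0.014), for Slfn5 Iqgap2 and Ano6 (0.014 each), and for Slfn8 Nus1 (0.014) and Slf2 (0.015). For Slfn2 they were Cd40 (0.012), with a log2 fold change of -0.08 that was not called without thrombocytopenic replicate 2 (-0.06, adjusted p = 0.0849), and Ccnj (0.013), which was not called. With 2 groups of 3 libraries such a profile is mostly the fold change between the groups.

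**Figure D5:**
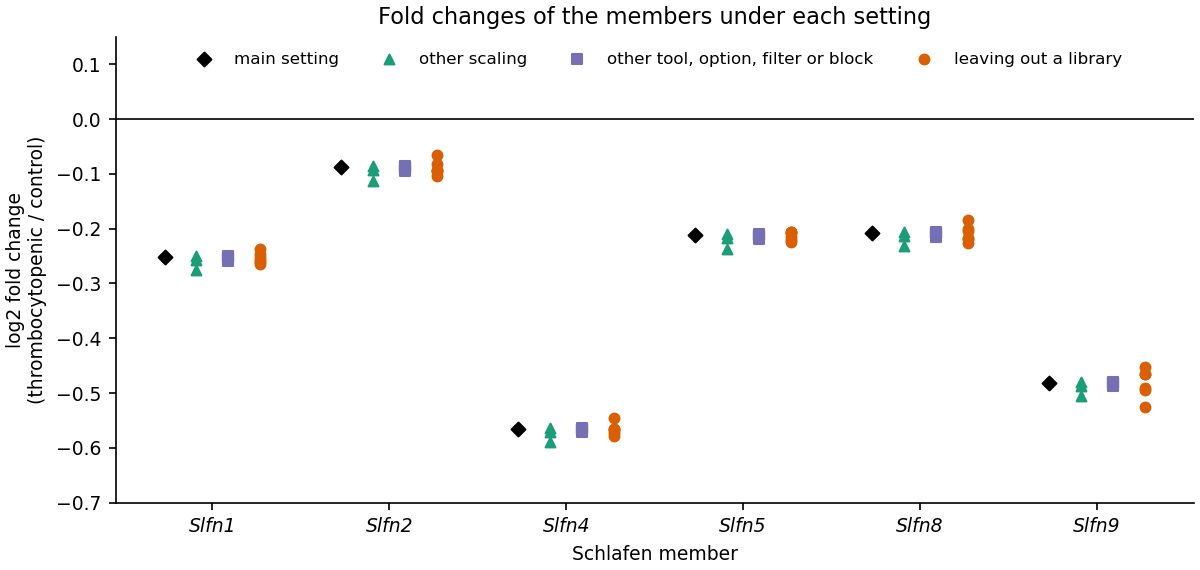
Log2 fold change of thrombocytopenic over control (vertical axis) of each member under the main setting and 15 alternatives, grouped by kind. All points lie below 0, from -0.59 for Slfn4 to -0.07 for Slfn2.

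Across the 15 alternatives each of the 6 members stayed lower and past the threshold. Slfn2 had the least margin, with a log2 fold change of -0.07 and an adjusted p of 0.0382 by edgeR without thrombocytopenic replicate 2. Slfn4 ranged from -0.59 to -0.55 and Slfn9 from -0.52 to -0.45.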

How the data were processed

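The authors deposited raw counts per gene, 1 file for each library, without a header; every value is a whole number. The tools named, per the submitters' processing notes, are STAR 2.7.9a, Salmon 1.5.2, featureCounts, Subread 2.0.1 and fastp 0.23.1. The sources used here do not give the build, the annotation, the strand setting or how reads matching several genes were treated. Libraries came from a stranded kit after oligo-dT selection, per the labels' protocols.

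Genes passing filterByExpr (minimum count 10, minimum total 15; 12488 genes) were scaled by TMM and compared between the 3 thrombocytopenic and 3 control libraries with edgeR 4.0.16 in R 4.3.3 (robust quasi-likelihood fit on group alone, two-sided tests). P-values were adjusted over all genes by Benjamini-Hochberg, with calls at 0.05, and an SE is the log2 fold change divided by the root of F. Alternatives used DESeq2 1.42.0, limma-voom (limma 3.58.1), other scalings and filters, a replicate block, and leaving out each library. Between replicates, chi-square per degree of freedom was 1.87 to 3.11, above counting noise.

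Members, lists and ratios were chosen with earlier results of these data known. Named genes are all members and other Schlafen genes, up to 3 genes with the smallest p of each list and the exceptions in it, and for each member the 2 closest profiles outside the family; marker lists are given as sums, with a few defining genes; other exceptions are marked in the text. Gene lengths and windows come from GENCODE M21 (GRCm38), alignments are local, and promoters are from RefSeq (GRCm38.p6), which held windows for all 6 members. Protein sequences were not used here. A few genes of the lists are not reported here.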

Additional observations from a re-analysis of the deposited data

How the results depend on the processing

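All 6 Schlafen members were called lower under each of the 15 alternatives. The counts of genes called higher and lower over all genes stayed within 2362 to 2829 and 2347 to 3164. The summed CPM of the members had a log2 ratio of -0.22; with upper quartile scaling it was -0.24, and leaving out each library in turn it ranged from -0.23 to -0.21. Upper quartile scaling moved the median of all genes by under 0.1, to -0.02. The count ratios and the share differences of Slfn1, Slfn2, Slfn4, Slfn8 and Slfn9 kept their direction without each library in turn and as log2 ratios to the rest of the family; the small difference of Slfn5 was -0.037 percentage points without thrombocytopenic replicate 2. Of the listed genes, those named with a changed call are given beside their values. With a replicate block (the replicate number of the titles as a term) 2675 genes were higher and 2723 lower, and the members' calls were the same, with a log2 fold change of -0.56 for Slfn4. Same-numbered libraries did not deviate together (Pearson r across genes of -0.04, -0.10 and -0.01), and no library correlated best with its own number. These deviations were centred within each group of 3 libraries, so that they cannot settle whether the numbers pair the samples. Depth limits the silent genes Slfn14, Slfn5os and Slfnl1, where 3 counts or fewer leave a difference undetectable.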
